A study of Mus musculus with 7 samples.

Results

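The epidermal growth factor (EGF) receptor family and its ligands were followed here through 2 mouse models of glioblastoma (GBM), as the 4 receptor genes *Egfr*, *Erbb2*, *Erbb3* and *Erbb4* and the 6 ligand genes *Hbegf*, *Areg*, *Ereg*, *Btc*, *Tgfa* and *Nrg1*. These 10 genes were given by name, with earlier results of these data known. All 10 had counts, and they were read among the 49492 genes of the count table in all 7 libraries of bulk RNA-seq. The 3 NSCHRas-shp53 samples were whole GBM tissue, not sorted, from adult mice whose ventricular-subventricular zone had received lentivirus carrying a short hairpin RNA against *Trp53* together with a constitutively active human *HRAS*. The 4 NPCTKO samples were tumor cells carrying EGFP or DsRed, isolated by FACS from GBMs that arose after *in utero* electroporation of embryonic neocortical precursors with a piggyBac cassette encoding Cas9 and guide RNAs against tumor suppressor genes that included *Trp53* and *Nf1*, where a CAG promoter drove DsRed, and the reporter of each sample was not stated. The labels give C57BL/6 mice aged 3 months and GBM as the tissue for all 7 samples. They do not say whether samples of a model came from separate animals, so p-values measure the spread between these samples, which may be technical. *Trp53* was targeted in both models, by editing or by knockdown, and no non-tumor sample was analysed.

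The receptors are tyrosine kinases of the cell surface that pair with each other once a ligand is bound and pass the signal to the Ras-MAPK and PI3K pathways. EGFR is the receptor of HB-EGF, amphiregulin, epiregulin, betacellulin and TGF-alpha, and ERBB3 and ERBB4 bind neuregulins, whereas ERBB2 has no known soluble ligand and ERBB3 has little kinase activity of its own. The ligands are made as membrane proteins that proteases release, several of their genes are induced by Ras-MAPK signaling, and *EGFR* is often amplified in human GBM.

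The 3 NSCHRas-shp53 libraries held 17529054 to 19840860 counts and the 4 NPCTKO libraries 15002873 to 19247326. Counts were scaled to library size with TMM factors (CPM), and 3 counts, the floor used here, equaled 0.13 to 0.164 CPM in NSCHRas-shp53 and 0.156 to 0.234 CPM in NPCTKO samples (counting error only). Among the markers of GBM cells, *Sox2* was listed at 0 counts in every library. Its FPKM (fragments per kilobase of transcript, scaled to library size) was 51.1 to 111.5 in NSCHRas-shp53 and 71.0 to 133.9 in NPCTKO samples. The other markers of this list differed. *Nes* and *Pdpn* were 5.04 and 18.9 fold higher in NSCHRas-shp53 than in NPCTKO samples (edgeR adjusted p = 0.027 and 0.0028). *Olig2* was 4.34 fold lower (edgeR adjusted p = 0.022). Marker sums of neural cells were higher without overlap in NSCHRas-shp53 than in NPCTKO samples, at 313.2 to 599.8 against 25.1 to 46.2 CPM for neurons (7 of 7 markers called by edgeR) and 1676 to 2212 against 77.3 to 254.4 CPM for astrocytes (4 of 5 called, *Gfap* at 0 counts). So were those of endothelial cells (399.7 to 817.3 against 27.0 to 229.8 CPM, 2 of 6 called), mural cells (240.5 to 379.7 against 17.5 to 30.3 CPM, 3 of 5) and fibroblasts (201 to 521.7 against 31 to 90.4 CPM, 2 of 4). Tumor-associated macrophage (TAM) markers overlapped, at 2213 to 6408 CPM in NSCHRas-shp53 and 420.3 to 21870 CPM in NPCTKO samples, with *P2ry12* at 0 counts and 0 of 9 called by edgeR, also 0 at an unadjusted p under 0.05 and by DESeq2. Granulocyte markers overlapped too (3.33 to 11.3 against 0.544 to 93.1 CPM). In bulk samples, fewer cells of a type and less RNA per cell cannot be told apart, and neither can the model and its preparation.

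Of the 6 ligand genes, 4 were higher in NSCHRas-shp53 GBMs (*Hbegf*, *Areg*, *Ereg* and *Btc*, by 7.22 to 25.4 fold) and none was lower, whereas of the 4 receptors only *Erbb3* passed the test, and it was lower. All 10 genes passed the filter on low counts, and 5 of 10 were called at a Benjamini-Hochberg adjusted p under 0.05 by the quasi-likelihood test of edgeR, against 13.1% of 16091 genes tested (7.77% higher and 5.28% lower). The median log2 fold change, NSCHRas-shp53 minus NPCTKO, was 3.15 for the ligands, 0.0048 for the receptors and -0.097 for all genes tested. No single receptor was near the receptor median, which lay between *Egfr* (1.18) and *Erbb2* (1.23) on one side and *Erbb3* (-2.59) and *Erbb4* (-1.17) on the other. In CPM, 5 of 10 members lay above all NPCTKO samples in all 3 NSCHRas-shp53 samples, against 16.3% of genes tested, and 2 of 10 lay below them, against 14.9%. On FPKM values, limma called the same 5 members, against 14.5% of genes tested. The calls rest on few samples: without NSCHRas-shp53 sample 2 or sample 3 only *Areg* and *Hbegf* were still called, and without sample 1 there were 3 calls.

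**Figure D1:**
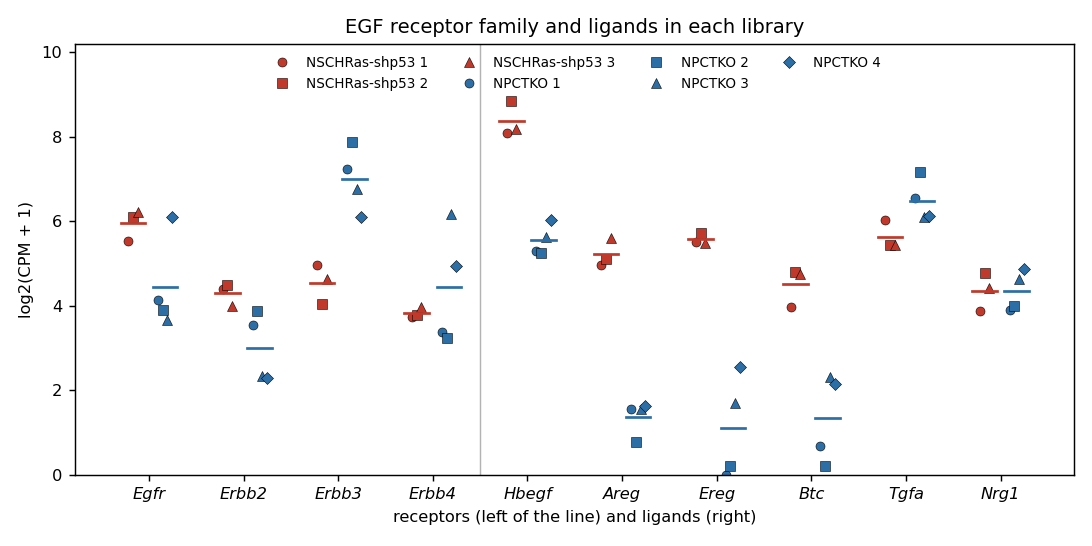
log2(CPM + 1) of the 4 receptor and 6 ligand genes in each of the 3 NSCHRas-shp53 (red) and 4 NPCTKO (blue) libraries, with a bar at the mean of each model. *Hbegf*, *Areg*, *Ereg*, *Btc* and, narrowly, *Erbb2* stood higher in all red points, *Erbb3* and *Tgfa* stood lower, and *Egfr* overlapped through NPCTKO sample 4.

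*Hbegf* encodes heparin-binding EGF-like growth factor, a ligand of EGFR and ERBB4. It was read at 270.5, 457.2 and 292.2 CPM in NSCHRas-shp53 samples 1 to 3, against 38.4, 37.0, 48.8 and 64.1 CPM in NPCTKO samples 1 to 4. The lowest NSCHRas-shp53 sample was 4.22 times the highest NPCTKO sample, so the models were well apart. The fold change was 7.22 (log2 2.85, SE 0.34, edgeR adjusted p = 0.0037), and the call was kept in all 16 alternative settings, with an adjusted p from 5.6e-12 to 0.02. *Hbegf* lies on chromosome 18 of mm10 from 36504929 to 36515805 on the minus strand.

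*Areg* encodes amphiregulin, a ligand that binds EGFR alone. It had 30.3, 33.4 and 47.8 CPM in NSCHRas-shp53 samples, against 1.95, 0.702, 1.93 and 2.12 CPM in NPCTKO samples. No sample of either model came near the other, with the closest pair 14.3 fold apart, and NPCTKO sample 2 (9 counts) was the lowest. The fold change was 22.0 (log2 4.46, SE 0.46, edgeR adjusted p = 0.0028), and the call was kept in all 16 alternative settings, with an adjusted p from 4e-20 to 0.019.

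*Ereg* encodes epiregulin, a ligand of EGFR and ERBB4. It was at 44.7, 52.1 and 44.2 CPM in NSCHRas-shp53 samples, against 0, 0.156, 2.24 and 4.90 CPM in NPCTKO samples. In NPCTKO samples 1 and 2 it had 0 and 2 counts, at or under the floor, whereas samples 3 and 4 had 43 and 81 counts. The fold change was 25.4 (log2 4.67, SE 1.20, edgeR adjusted p = 0.040), and the SE was the widest of the 10 members. The call was lost without NPCTKO sample 2 (adjusted p = 0.059) and without NSCHRas-shp53 sample 1, 2 or 3 (adjusted p = 0.097, 0.12 and 0.12), and without TMM factors (adjusted p = 0.060), while limma on FPKM gave an adjusted p of 0.0014.

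*Btc* encodes betacellulin, which also binds EGFR and ERBB4. Its values were 14.6, 26.9 and 26.0 CPM in NSCHRas-shp53 samples, against 0.606, 0.156, 3.96 and 3.45 CPM in NPCTKO samples. As for *Ereg*, NPCTKO samples 1 and 2 (9 and 2 counts) were lower than samples 3 and 4 (76 and 57 counts). The fold change was 10.9 (log2 3.44, SE 0.90, edgeR adjusted p = 0.041). The call was lost without NPCTKO sample 1 or 4 (adjusted p = 0.076 and 0.057) and without NSCHRas-shp53 sample 1, 2 or 3 (adjusted p = 0.082, 0.13 and 0.14), and without TMM factors (adjusted p = 0.068), while limma on FPKM gave an adjusted p of 0.0058.

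NPCTKO samples 1 and 2, in which *Ereg* and *Btc* were lowest, had the highest TAM marker sums (17710 and 21870 CPM, against 420.3 and 2727 CPM in samples 3 and 4). Their values relative to each gene's mean over the 7 libraries also rose with transcript GC content (Spearman 0.568 and 0.495). Those of NPCTKO samples 3 and 4 did not (-0.383 and -0.367). Between these pairs of libraries 8 of 10 members did not overlap in CPM, against 74.2% of all genes tested, so the split was about as common among the members as among other genes. Left with NPCTKO samples 3 and 4 alone, 7 of 10 members were called, the main 5 with *Erbb2* (log2 2.28, edgeR adjusted p = 0.012) and *Erbb4* (log2 -1.91, edgeR adjusted p = 0.025), while 2719 of 16631 genes tested were called in that fit. The part of TAMs, of GC content and of the vessel, fibroblast and neural cells of unsorted tissue in these results was not tested.

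*Ereg*, *Areg* and *Btc* are neighbors on chromosome 5 of mm10, *Ereg* from 91074622 to 91093646 and *Areg* from 91139599 to 91148432 on the plus strand, and *Btc* from 91357261 to 91402994 on the minus strand. From the start of *Ereg* to the far end of *Btc* the region spans 328 kb. The genes around them within 200 kb were read beside them, although a gene that does not pass the test sets no limit to how far the difference reached. *Cxcl1* (log2 0.36, SE 0.85, edgeR adjusted p = 0.81), *Cxcl2* (log2 -0.16, SE 0.89, edgeR adjusted p = 0.93), *Mthfd2l* (log2 -0.41, SE 0.54, edgeR adjusted p = 0.64) and *Parm1* (log2 0.87, SE 0.42, edgeR adjusted p = 0.20) did not pass the test. These genes flank the ligands on both sides. *Epgn*, the gene of the EGFR ligand epigen, lies beside *Ereg* and had 0, 8 and 3 counts in NSCHRas-shp53 samples, against 1, 0, 6 and 2 counts in NPCTKO samples, too few to test, as were the counts of *Gm42530* and *Gm19619*. *Gm42532*, on the other strand from 91051871 to 91074773, overlaps only the start of *Ereg*, at 91074622. It was higher in NSCHRas-shp53 (log2 5.12, SE 1.04, edgeR adjusted p = 0.018). Since the libraries were not directional, its reads cannot be told apart from those of *Ereg* where they overlap.

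**Figure D2:**
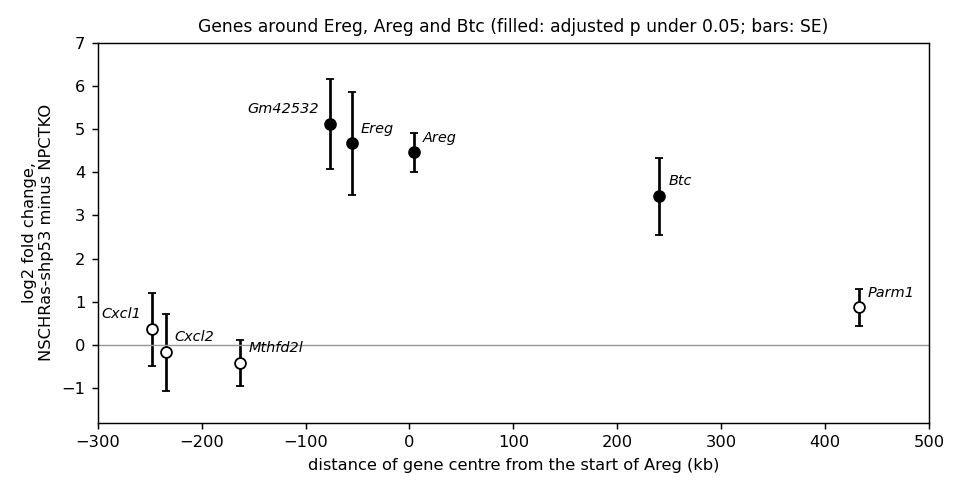
log2 fold change, NSCHRas-shp53 minus NPCTKO, with its SE, of the tested genes within 200 kb of *Ereg*, *Areg* and *Btc*, against the distance of each gene's centre from the start of *Areg* in kb. The filled points, *Gm42532*, *Ereg*, *Areg* and *Btc*, lie between 3.44 and 5.12, and the 4 open points between -0.41 and 0.87.

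To show the sequence at the starts of these ligand genes, the promoter windows of *Areg* and *Btc*, 2 of the neighbors that were higher, are printed beside that of *Tgfa*, an EGFR ligand that was not called. They run 5′ to 3′ on the strand of the gene, from 250 bases before its start to 50 bases after it, as given by RefSeq on GRCm38.p6, with matches to 4 motifs in capitals. The windows are chr5:91139349-91139648 (plus strand) for *Areg*, chr5:91402945-91403244 (minus strand) for *Btc* and chr6:86194972-86195271 (plus strand) for *Tgfa*.
Areg: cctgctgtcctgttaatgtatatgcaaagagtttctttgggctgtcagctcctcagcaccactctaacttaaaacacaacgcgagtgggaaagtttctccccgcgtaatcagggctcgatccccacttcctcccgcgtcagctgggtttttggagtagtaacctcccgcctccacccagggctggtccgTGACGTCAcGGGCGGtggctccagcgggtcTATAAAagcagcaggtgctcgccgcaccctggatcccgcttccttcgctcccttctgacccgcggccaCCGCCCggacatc
Btc: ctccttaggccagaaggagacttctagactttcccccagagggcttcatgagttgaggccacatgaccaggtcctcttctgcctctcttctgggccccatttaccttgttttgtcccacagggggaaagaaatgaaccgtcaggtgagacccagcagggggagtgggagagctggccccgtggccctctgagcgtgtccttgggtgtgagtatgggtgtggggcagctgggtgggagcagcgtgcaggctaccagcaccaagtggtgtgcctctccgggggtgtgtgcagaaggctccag
Tgfa: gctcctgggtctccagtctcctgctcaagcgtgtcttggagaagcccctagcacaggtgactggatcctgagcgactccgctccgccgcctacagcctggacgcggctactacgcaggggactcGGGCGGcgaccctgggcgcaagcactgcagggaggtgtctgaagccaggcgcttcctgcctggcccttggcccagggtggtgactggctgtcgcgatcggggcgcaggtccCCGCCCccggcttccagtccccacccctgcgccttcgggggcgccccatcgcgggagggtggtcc
The motifs searched on both strands were the cyclic AMP response element TGACGTCA, the TATA box TATAAA, the GC box GGGCGG and the AP-1 element TGANTCA. The *Areg* window held a cyclic AMP response element at bases -61 to -54 from the gene start, a GC box at -52 to -47, a TATA box at -31 to -26 and, past the start, a GC box on the other strand at 38 to 43. The *Tgfa* window held a GC box at -126 to -121 and another, on the other strand, at -15 to -10, and no letters of the *Btc* window matched. Among 32851 promoter windows of the same length, 1.79% held TGACGTCA, 13.6% TATAAA, 35.7% GGGCGG and 7.81% TGANTCA. Of the 6 members with a window in the RefSeq table, only *Areg* held TGACGTCA and none held TGANTCA. A match is a description of letters, and no binding was measured.

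*Tgfa* encodes TGF-alpha, an EGFR ligand that astrocytes and gliomas make. It had 64.1, 42.7 and 42.3 CPM in NSCHRas-shp53 samples, against 92.6, 142, 67.3 and 69.1 CPM in NPCTKO samples. The models did not overlap, but the closest samples were only 1.05 fold apart. The difference did not pass the test (log2 -0.90, SE 0.36, edgeR adjusted p = 0.13), nor did it under any of the 16 alternative settings (adjusted p from 0.081 to 0.37). *Tgfa* lies on chromosome 6 of mm10 from 86195223 to 86275719 on the plus strand.

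*Nrg1* encodes neuregulin 1, which binds ERBB3 and ERBB4 and acts on Schwann cells and oligodendrocyte precursors. By counts it was at 13.7, 26.5 and 20.3 CPM in NSCHRas-shp53 samples, against 13.9, 15.0, 23.9 and 28.3 CPM in NPCTKO samples, and the models overlapped fully (log2 -0.0085, SE 0.39, edgeR adjusted p = 0.99). By FPKM it was at 1.39, 2.69 and 2.59 in NSCHRas-shp53 samples, against 3.57, 3.37, 4.52 and 5.37 in NPCTKO samples, where every NSCHRas-shp53 sample was lower but the difference did not pass the test (log2(FPKM + 1) difference -0.70, SE 0.28, limma adjusted p = 0.13). The tables thus disagree for this gene, whose span covers 1069479 bases of chromosome 8, from 31814551 to 32884029 on the minus strand. A sample's CPM was 7.83 to 9.86 times its FPKM in NSCHRas-shp53 and 3.9 to 5.29 times in NPCTKO samples. Whether introns were counted is not stated in the methods or labels.

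**Figure D3:**
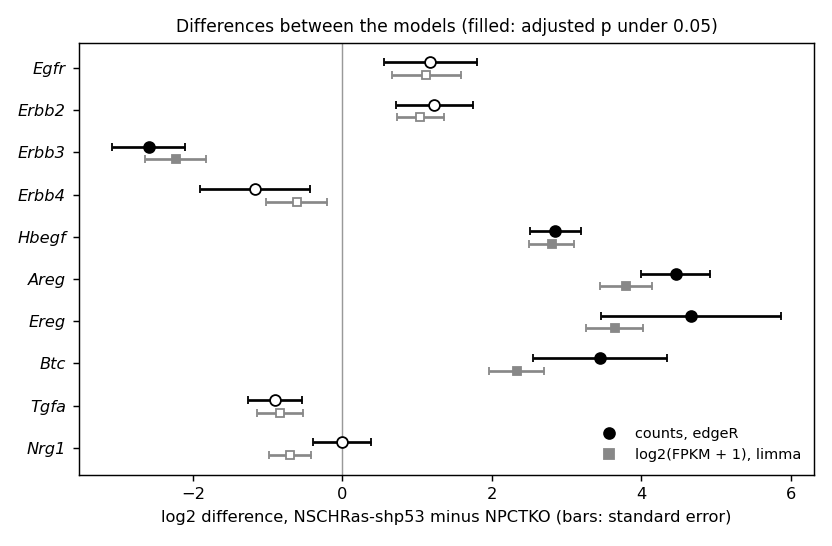
log2 difference, NSCHRas-shp53 minus NPCTKO, and its standard error for each member from counts (circles, edgeR) and from log2(FPKM + 1) (squares, limma), filled where the adjusted p was under 0.05. Both measures called *Erbb3*, *Hbegf*, *Areg*, *Ereg* and *Btc*, and for *Nrg1* they gave -0.0085 and -0.70.

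*Egfr* encodes the EGF receptor and lies on chromosome 11 of mm10 from 16752203 to 16918158 on the plus strand. It was read at 45.3, 67.5 and 73.6 CPM in NSCHRas-shp53 samples, against 16.8, 13.9, 11.7 and 67.3 CPM in NPCTKO samples. NPCTKO samples 1 to 3 were below every NSCHRas-shp53 sample, but sample 4 was within their range. The difference did not pass the test (log2 1.18, SE 0.62, edgeR adjusted p = 0.24). Without NPCTKO sample 4 it was called (log2 2.13, edgeR adjusted p = 0.014), so this one library decides the call. Among the genes whose log2(CPM + 1) was most like that of *Egfr* over the 7 libraries were *4930412C18Rik* (Pearson r 0.992), *Lmntd2* (0.987), *Serpinb8* (0.983) and *Gm45216* (0.981), a description over libraries that share these models, out of 16091 genes. None of these 4 was called (edgeR adjusted p from 0.35 to 0.46).

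*Erbb2* encodes the receptor that joins the others as a partner. It was at 20.2, 21.6 and 15.0 CPM in NSCHRas-shp53 samples, against 10.6, 13.7, 4.06 and 3.87 CPM in NPCTKO samples. The models did not overlap, by 1.1 fold at the closest, and NPCTKO samples 1 and 2 were nearer to NSCHRas-shp53 than samples 3 and 4. The difference did not pass the test (log2 1.23, SE 0.51, edgeR adjusted p = 0.15), but it did without TMM factors (log2 1.57, edgeR adjusted p = 0.050) and with trends in GC content and length removed (log2 1.47, edgeR adjusted p = 0.037). *Erbb2* lies on chromosome 11 of mm10 from 98412470 to 98437716 on the plus strand and its end overlaps *Mien1* on the other strand, whose reads cannot be told apart there.

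*Erbb3* encodes the neuregulin receptor that signals through its partner, and it is known in oligodendrocyte precursors and Schwann cells. It was read at 30.3, 15.5 and 23.9 CPM in NSCHRas-shp53 samples, against 150.2, 235.2, 107 and 67.5 CPM in NPCTKO samples. Every NSCHRas-shp53 sample was lower, and the closest samples were 2.23 fold apart. *Erbb3* was 6.02 fold lower in NSCHRas-shp53 (log2 -2.59, SE 0.49, edgeR adjusted p = 0.014), and the call was lost without NSCHRas-shp53 sample 2 or 3 (adjusted p = 0.073 and 0.076). Markers of oligodendrocyte precursors moved with it, at a sum of 465.2 to 810.8 CPM in NSCHRas-shp53 and 2211 to 5086 CPM in NPCTKO samples, with 4 of 5 called lower, whereas those of mature oligodendrocytes overlapped (953.5 to 7256 against 798.7 to 5011 CPM, 0 of 6 called by edgeR, also 0 at an unadjusted p under 0.05 and by DESeq2). Their part in the *Erbb3* result was not tested. *Erbb3* lies on chromosome 10 of mm10 from 128567523 to 128589652 on the minus strand.

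*Erbb4* encodes the neuregulin receptor of interneurons and glia. It was at 12.3, 12.8 and 14.7 CPM in NSCHRas-shp53 samples, against 9.49, 8.50, 71.6 and 29.8 CPM in NPCTKO samples. NPCTKO samples 1 and 2 were below and samples 3 and 4 above the NSCHRas-shp53 samples. No difference passed the test (log2 -1.17, SE 0.73, edgeR adjusted p = 0.32). Its CPM was 7.55 to 27.9 times its FPKM in NSCHRas-shp53 and 6.25 to 15.2 times in NPCTKO samples, a range wider than for the other members, and the gene spans 1075874 bases of chromosome 1, from 68032186 to 69108059 on the minus strand.

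Levels of different genes were compared per length, as FPKM. In NSCHRas-shp53 GBMs the order was *Hbegf* (148.1 ± 43.3 FPKM, SD, n = 3), *Areg* (31.6 ± 11.6), *Ereg* (17.8 ± 3.44), *Tgfa* (11.0 ± 3.53), *Egfr* (9.15 ± 2.14), *Btc* (7.42 ± 2.09), *Erbb2* (3.55 ± 0.790), *Erbb3* (3.54 ± 1.19), *Nrg1* (2.22 ± 0.722) and *Erbb4* (0.988 ± 0.593). Only *Hbegf* from *Areg*, and *Btc* from *Erbb2*, were neighbors in this order whose samples did not overlap. In NPCTKO cells it was *Erbb3* (21.6 ± 10.6 FPKM, SD, n = 4), *Tgfa* (20.6 ± 6.98), *Hbegf* (20.4 ± 5.98), *Egfr* (4.30 ± 3.54), *Nrg1* (4.21 ± 0.922), *Erbb4* (2.25 ± 1.73), *Erbb2* (1.29 ± 0.800), *Areg* (1.29 ± 0.494), *Btc* (0.735 ± 0.670) and *Ereg* (0.607 ± 0.720). Only *Hbegf* and *Egfr* were neighbors without overlap, so the first 3 genes were not separated from each other. Ranked by counts per kilobase of the whole gene span, which holds introns, 6 of the 20 positions in both orders stayed.

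The make-up of each class also differed. The 6 ligands summed to 168.7, 268.5 and 217.3 FPKM in NSCHRas-shp53 samples, against 41.3, 50.1, 46.1 and 53.9 FPKM in NPCTKO samples, and the 4 receptors to 17.4, 15.8 and 18.5 FPKM, against 29.7, 41.0, 24.2 and 22.9 FPKM. The ligand sum was thus higher and the receptor sum lower in every NSCHRas-shp53 sample. Of the receptors, only *Erbb3* was itself lower in every NSCHRas-shp53 sample (2.35 to 4.74 against 10.7 to 35.7 FPKM). *Erbb2* was higher in every one (2.66 to 4.17 against 0.632 to 2.285 FPKM), and *Egfr* and *Erbb4* overlapped. The lower receptor sum is therefore not a trait of each receptor. *Hbegf* made up 67.6, 73.3 and 61.4% of the ligand sum in NSCHRas-shp53 samples, against 39, 30.7, 47.7 and 52.3% in NPCTKO samples. *Tgfa* made up 8.92, 3.15 and 4.4% of it, against 48, 61.3, 34.2 and 29.8%. The shares of both genes did not overlap between the models. *Hbegf* led the ligands in every NSCHRas-shp53 sample and also in NPCTKO samples 3 and 4, whereas *Tgfa* led in NPCTKO samples 1 and 2. Among the receptors, *Egfr* made up 41.4, 55.8 and 61.8% of the sum in NSCHRas-shp53 samples, against 12.5, 5.66, 7.08 and 41.3% in NPCTKO samples. *Erbb3* made up 27.3, 14.9 and 19.1%, against 77, 87.1, 70.8 and 46.7%. *Egfr* led the receptors in all 3 NSCHRas-shp53 samples and *Erbb3* in all 4 NPCTKO samples, of which sample 4 was nearest to equal shares.

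**Figure D4:**
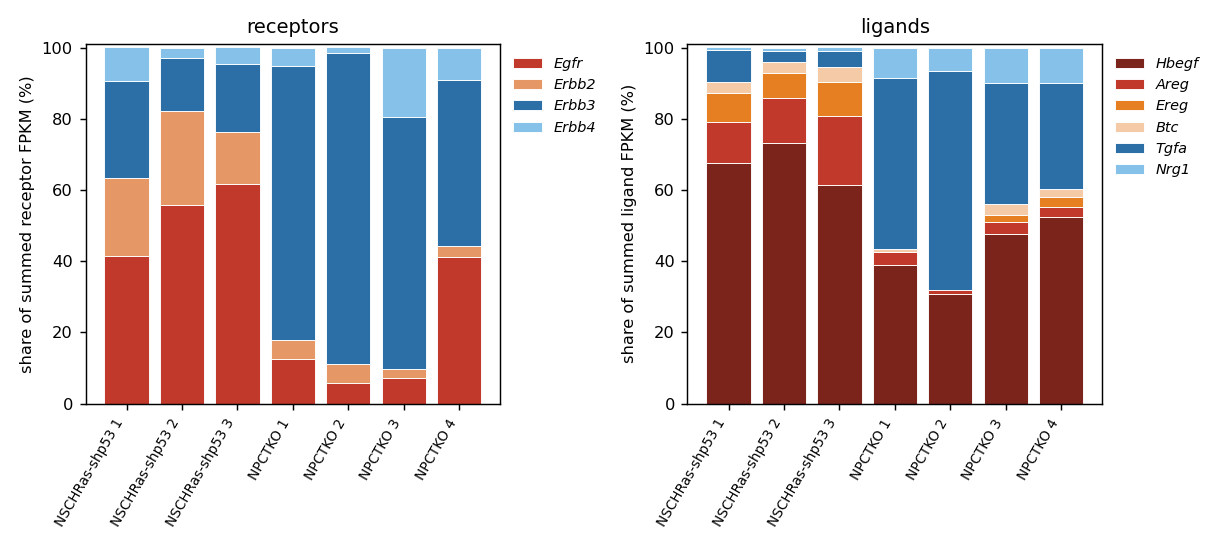
Share of each gene in the summed FPKM of the 4 receptors (left) and the 6 ligands (right), in percent, for each of the 3 NSCHRas-shp53 and 4 NPCTKO samples. *Erbb3* fills 14.9 to 27.3% of the receptor bars in NSCHRas-shp53 and 46.7 to 87.1% in NPCTKO samples, and *Tgfa* 3.15 to 8.92% and 29.8 to 61.3% of the ligand bars.

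The members also varied among the samples of a model. Within NPCTKO the range of log2(CPM + 1) over the 4 samples was 2.93 for *Erbb4*, 2.56 for *Ereg*, 2.43 for *Egfr*, 2.1 for *Btc*, 1.79 for *Erbb3* and 1.59 for *Erbb2*, above the median of 1.19 over all genes tested. It was 1.07 for *Tgfa*, 0.973 for *Nrg1*, 0.872 for *Areg* and 0.774 for *Hbegf*, below that median. The 1 added to CPM narrows the range of genes at low CPM, such as *Areg* (0.702 to 2.12 CPM in NPCTKO samples). The low range of *Areg* therefore does not show that it was steady. All 4 receptors and 2 of the 6 ligands thus lay above that median in NPCTKO cells. By definition as many genes lie above a median as below it, so this count alone does not set the members apart. Of all genes tested, 67 to 92.6% had a smaller range than the members above the median, and 27.2 to 43.8% than those below it. The split between pairs of NPCTKO libraries, seen in 74.2% of all genes tested, was not separated from these ranges. Within NSCHRas-shp53 the range ran from 0.234 for *Ereg* to 0.92 for *Erbb3*, beside a median of 0.556 over 3 samples.

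Other genes of the pathway were read from 4 lists, of which 37 of 39 genes were tested and 4 were called, 2 higher and 2 lower in NSCHRas-shp53 (median log2 fold change 0.045). This is 4 of 37, against the 13.1% of all genes tested. Of the other EGF family ligands, 0 of 4 tested genes were called by edgeR, with 1 at an unadjusted p under 0.05, 1 called by DESeq2 and 0 by limma on FPKM. Of 9 genes for ligand shedding and trafficking 0 were called by edgeR, DESeq2 or limma, with 1 at an unadjusted p under 0.05 in edgeR. Named here for their role, after their values were seen, are the sheddases *Adam17* (log2 0.16, SE 0.28, edgeR adjusted p = 0.74) and *Adam10* (log2 1.06, SE 0.38, edgeR adjusted p = 0.099). The lists are plotted gene by gene.

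Among 12 adaptors and effectors only *Gab1*, a docking protein that links receptors to PI3K and SHP2, was called. It was at 85.1, 46.6 and 47.5 CPM in NSCHRas-shp53 samples, against 131, 126.2, 185.3 and 124.8 CPM in NPCTKO samples, lower without overlap (log2 -1.25, SE 0.33, edgeR adjusted p = 0.044). Leaving out any 1 of the 7 samples lost this call (adjusted p from 0.052 to 0.19).

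Among 12 tested negative regulators of the receptors, 2 were higher and 1 was lower in NSCHRas-shp53. *Socs5*, a suppressor of cytokine signaling that also limits EGFR, had 117.2, 137.5 and 140.2 CPM in NSCHRas-shp53 samples, against 34.7, 31.1, 51.3 and 45.9 CPM in NPCTKO samples (log2 1.69, SE 0.28, edgeR adjusted p = 0.0092). *Errfi1*, whose product MIG6 binds and blocks the EGFR kinase and which ERK signaling induces, had 332.2, 93.0 and 142 CPM in NSCHRas-shp53 samples, against 69.6, 52.4, 42.8 and 77.7 CPM in NPCTKO samples (log2 1.64, SE 0.45, edgeR adjusted p = 0.049). *Socs5* was well separated between the models, whereas *Errfi1* was spread widely in NSCHRas-shp53 and leaving out any 1 of the 7 samples lost its call (adjusted p from 0.057 to 0.15, the highest without NSCHRas-shp53 sample 1, with log2 0.99). *Lrig3*, which encodes a membrane protein of the LRIG family, had 5.90, 5.07 and 4.41 CPM in NSCHRas-shp53 samples, against 24.4, 18.3, 30.0 and 23.2 CPM in NPCTKO samples, and was lower (log2 -2.22, SE 0.34, edgeR adjusted p = 0.0077). *Lrig1*, named after its values were seen as the family member known to restrain EGF receptors, had 341.5, 315.9 and 340.7 CPM in NSCHRas-shp53 samples, against 81.6, 52.1, 66.7 and 228.3 CPM in NPCTKO samples, and did not pass the count test (log2 1.63, SE 0.51, edgeR adjusted p = 0.071) but was called on FPKM (limma adjusted p = 0.027). The calls of *Socs5* and *Lrig3* were kept in all 16 alternative settings.

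**Figure D5:**
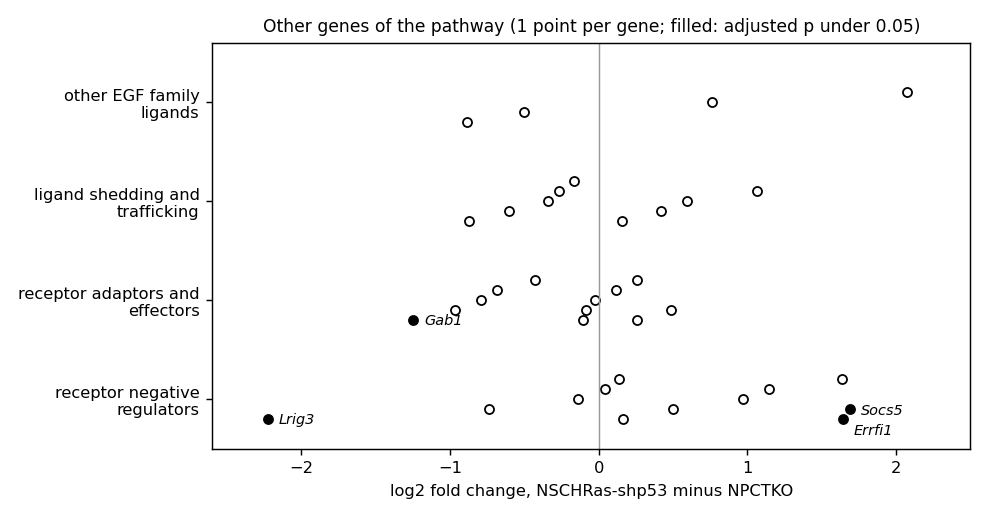
log2 fold change, NSCHRas-shp53 minus NPCTKO, of the 37 tested genes of the 4 pathway lists, 1 point per gene, filled where the edgeR adjusted p was under 0.05. The filled points are *Lrig3* (-2.22) and *Gab1* (-1.25), lower in NSCHRas-shp53, and *Errfi1* (1.64) and *Socs5* (1.69), higher.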

How the data were processed

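Bulk RNA-seq was analysed for 3 NSCHRas-shp53 and 4 NPCTKO samples. The authors deposited raw counts per gene, from reads trimmed with Cutadapt (1.16, per the submitters' notes on processing) and aligned by TopHat 2.1.1 to mm10. How reads were counted, and over which part of a gene, is not stated. FPKM values came from the authors' run of Cufflinks 2.2.1, and of 28538 rows the 3767 without a gene name were left out and rows of 1 gene were summed (*Ereg* has 2). Kits differ between the labels (TRIZOL, non-directional) and the methods (RNAiso Plus, NEBNext Ultra II). The methods also keep some mice on a mixed background, and which mice gave which library is not stated.

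Counts were compared with edgeR 4.0.16 in R 4.3.3 (TMM, filterByExpr, quasi-likelihood test, adjusted p under 0.05 over 16091 genes), and log2(FPKM + 1) with limma 3.58.1 where the mean FPKM was at least 0.1 (15189 genes). The plan fixed the edgeR test, the lists and the rule for naming genes (all 10 members, called genes of each list, the 5 genes most like *Egfr*), and some items that it selects are not reported here. Members and lists were chosen with earlier results of these data known. Alternatives were DESeq2 1.42.0, other size factors, filters, pseudocounts, a replicate block and leaving out samples. Trends with GC content and length, removed with GENCODE transcripts (97.4% of genes had a value), and the limma fit without NPCTKO samples 1 and 2 were added after seeing the data. Replicate numbers did not pair the samples. The scripts were tested on simulated data. Python 3.11.15 read the promoters.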

Additional observations from a re-analysis of the deposited data

Results flagged for a closer look

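Each flagged value was 1 NPCTKO sample that lay far from the other 3. The test, run on the 10 members and the 4 called pathway genes, flags about 1 in 20 groups of 4 by chance. *Egfr* was at 67.3 CPM in NPCTKO sample 4, against 16.8 CPM in the nearest other sample. *Areg* was at 0.702 CPM in NPCTKO sample 2, against 1.93 CPM in the nearest. *Gab1* was at 185.3 CPM in NPCTKO sample 3, against 131 CPM in the nearest.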

How the results depend on the processing

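The calls of *Areg*, *Hbegf*, *Lrig3* and *Socs5* were kept in all 16 alternatives. The number of members called, 5, was 2 to 5 on leaving out 1 sample, 4 without TMM factors, 6 with GC content and length trends removed and 7 without NPCTKO samples 1 and 2, and on FPKM it stayed at 5 to 6. Genes called numbered 2101, against 539 to 2595 without 1 sample, 2719 without NPCTKO samples 1 and 2, 3009 with GC content and length trends removed and 4031 with DESeq2, and on FPKM 2196, against 1002 to 2246 without 1 sample. The pathway genes called, 4, were 2 to 5 without 1 sample and 8 with DESeq2. The level order kept 6 of 20 positions by counts per kilobase of gene span. *Nrg1*, at a log2 fold change of -0.0085, changed sign with RLE size factors (0.0013), without TMM factors (0.14), with a minimum of 1 CPM in 3 samples (0.00085) and on leaving out 1 sample (-0.25 to 0.24). The cause was not tested. Leaving out TMM factors moved the median log2 fold change of all genes by 0.20.

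Same-numbered samples did not deviate together in every pair (r = 0.279, -0.193 and 0.193). With a replicate block, in which NPCTKO sample 4 has no partner and so adds nothing to the comparison, 1041 genes and 6 members were called, on FPKM 1354 genes, with *Egfr* at log2 2.12 (edgeR adjusted p = 0.037) and *Nrg1* at 0.19. Without NPCTKO sample 4 and with no block, *Egfr* was at log2 2.13.

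Counts of 0 to 9 for *Ereg* and *Btc* in NPCTKO samples 1 and 2, and of 9 for *Areg* in sample 2, limit the precision of their fold changes.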
